A study of Mus musculus with 6 samples.

Results

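The cells described here are enterocytes of the mouse jejunum with a high summed level of 5 transcripts, *Sult6b2*, *Bbox1*, *Leap2*, *Rdh16f2* and *Slc5a4b*, and are called LEAP2/BBOX1-high enterocytes. They were taken from the barcodes called as cells in 6 single-cell RNA libraries. A barcode passed when it held at least 750 genes, at most 20% mitochondrial UMIs (unique molecular identifiers, each marking a captured RNA molecule), *Lyz1* under 2% of its UMIs and 0 UMIs of *Cd3e*, *Cd3g* and *Ptprc*. Score M was the share of a barcode's UMIs that came from the 5 genes. Score A was the same share for *Car4*, *Ms4a18*, *Ces1f* and *Rgn*, and score B for *Ada*, *Slc28a2*, *Clca4a* and *Nt5e*. A member lay in the top 15% of M over all passing barcodes and outside the top 10% of A and of B. This gave 3336 members of 23823 passing barcodes (14.0%), and the passing barcodes were 40.1% of the 59457 called. The top 15% of M held 3574 barcodes, of which 238 were left out for A or B. Members were thus chosen by measured levels of the 13 score genes, and those levels are given as a description.

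Enterocytes are the absorptive cells of the gut lining. They are born in the crypts, mature as they move up the villus, and differ along the length of the intestine in the nutrients they take up. LEAP2 is a secreted peptide of liver and enterocytes that blocks the receptor of the hunger hormone ghrelin. BBOX1 carries out the last step of the synthesis of carnitine, which carries long-chain fatty acids into mitochondria. SULT6B2 belongs to the cytosolic sulfotransferases, RDH16F2 to the retinol dehydrogenases, and SLC5A4B to the family of sodium-glucose cotransporters.

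The mice were male wildtype C57BL/6J, about 30 weeks old and fasted overnight, and had been on their diet for 16 weeks before surgery. The 3 groups were a low-fat diet with sham operation (LFD sham, 3 mice pooled), a high-fat diet with sham operation (HFD sham, 3 mice pooled) and a high-fat diet with vertical sleeve gastrectomy, which removes most of the stomach (HFD VSG, 2 mice pooled), and jejunum was taken 5 weeks after the operation. Crypts and villi of each pool were released with EDTA and made into separate libraries with a 3′ droplet method, so that each group had 1 crypt-labelled and 1 villus-labelled library from the same mice. With 1 library per group there is no replicate, and no difference below has a test. Values of the groups are given in the order LFD sham, HFD sham and HFD VSG, and the 95% intervals (exact Poisson for sums of UMIs, exact binomial for shares) cover counting error only.

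The 6 libraries held 60522766 to 155522445 UMIs in 7765 to 12012 called barcodes. The labels crypt and villus do not describe the content in the usual direction. Of the passing barcodes, 78.3%, 60.6% and 62.7% of the crypt-labelled and 46.4%, 41.8% and 4.25% of the villus-labelled libraries lay above the overall median of an absorptive score, the summed share of 10 digestive enzymes and nutrient transporters. Paneth barcodes (*Lyz1* at 2% of UMIs or more), which belong to the crypt base, made up 1.04%, 0.883% and 0.784% of the barcodes within the limits on genes and mitochondrial UMIs in the crypt-labelled and 3.93%, 5.01% and 0.915% in the villus-labelled libraries. The names crypt-labelled and villus-labelled are therefore used for libraries and say nothing of position. Of the called barcode sequences, 420 occurred in 2 or more libraries, 73 among passing barcodes and 1 among members. Doublets were kept, and a doublet score marked 186 members (5.58%) against 7.57% of all passing barcodes.

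To show where the score genes lie and what stands before them, RefSeq promoter sequence is printed for the 4 of them that matched the RefSeq promoter table (GRCm38.p6) and for *Slc5a4a*, the neighbour of *Slc5a4b*. Each run is the 200 bases from 250 to 51 bases before the annotated start, 5′ to 3′ on the gene's strand. Capitals mark matches, on either strand, to CAAAGNNC (core of sites of the enterocyte factor HNF4) or AGATAA (the site of the GATA family). GTTAAT (an HNF1 site) and TTTATNG (CDX factors) were searched as well. A match is a match of letters and does not show binding.
Sult6b2, chr6:142804517-142804716, minus strand: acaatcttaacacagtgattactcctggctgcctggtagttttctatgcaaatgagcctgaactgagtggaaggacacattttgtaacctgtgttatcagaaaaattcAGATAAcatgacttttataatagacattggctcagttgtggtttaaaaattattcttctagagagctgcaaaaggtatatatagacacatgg
Bbox1, chr2:110305776-110305975, minus strand: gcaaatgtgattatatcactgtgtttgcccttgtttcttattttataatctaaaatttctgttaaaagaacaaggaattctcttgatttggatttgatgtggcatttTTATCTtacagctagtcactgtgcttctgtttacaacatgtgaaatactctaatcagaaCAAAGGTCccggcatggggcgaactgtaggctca
Rdh16f2, chr10:127866226-127866425, plus strand: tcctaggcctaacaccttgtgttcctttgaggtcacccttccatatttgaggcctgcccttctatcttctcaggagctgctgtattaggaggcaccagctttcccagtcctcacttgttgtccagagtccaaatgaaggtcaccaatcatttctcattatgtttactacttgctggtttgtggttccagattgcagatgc
Slc5a4b, chr10:76111069-76111268, minus strand: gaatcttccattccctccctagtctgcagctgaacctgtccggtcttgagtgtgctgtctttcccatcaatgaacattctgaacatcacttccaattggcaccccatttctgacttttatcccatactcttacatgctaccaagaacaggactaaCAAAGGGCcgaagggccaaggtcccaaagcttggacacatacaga
Slc5a4a, chr10:76147201-76147400, plus strand: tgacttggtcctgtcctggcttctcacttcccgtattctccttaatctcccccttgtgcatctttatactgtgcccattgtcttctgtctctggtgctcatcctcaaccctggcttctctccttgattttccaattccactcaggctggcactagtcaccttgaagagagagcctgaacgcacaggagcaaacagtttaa

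The promoter of *Bbox1* held a GATA match on the reverse strand 143 bases and an HNF4 core 84 bases before the start. *Slc5a4b* held an HNF4 core 95 bases before its start and *Sult6b2* a GATA match 142 bases before. The runs of *Rdh16f2* and *Slc5a4a* held no match to the 4 motifs. Of the 32851 promoter windows of this length in the table, 12.5% held the HNF4 core, 8.42% the GATA, 5.33% the HNF1 and 7.65% the CDX letters, so that such matches are common. In the GENCODE annotation (GRCm38), *Leap2* spans chr11:53422181-53423170 on the minus strand, *Sult6b2* chr6:142785204-142804502 (minus) and *Bbox1* chr2:110262697-110314560 (minus), so that the RefSeq start of *Bbox1* used here lies inside the GENCODE gene. *Rdh16f2* spans chr10:127866474-127877317 (plus) and *Slc5a4b* chr10:76057494-76110961 (minus). *Slc5a4a* lies 36489 bases from *Slc5a4b* on the opposite strand, and the 2 genes share none of the 50-base words in the last 500 bases of their transcripts. Of these words of *Rdh16f2*, 2.66% occur also in *Rdh1*, which was at or near 0 in members.

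*Leap2* supplied more of score M than any other of the 5 genes in each library. Summed over members, its level was 663, 639.6 and 767 CPM in the crypt-labelled libraries and 641, 569 and 883 CPM in the villus-labelled libraries, where CPM is UMIs of the gene per 1000000 UMIs of the same barcodes. HFD VSG was highest in both fractions, and members were cut at a fixed sum of which *Leap2* is the largest part. In the other absorptive barcodes (8966 passing barcodes above the median of the absorptive score that are no members), *Leap2* stood at 287, 286 and 337 CPM in the crypt-labelled libraries and 222, 237 and 324 CPM in the villus-labelled libraries. Of members, 98.3 to 100% held a *Leap2* UMI, at medians of 14730 to 34695 UMIs per barcode. Free RNA gives UMIs to cells that do not express a gene, and 10.6 to 51.2% of Paneth barcodes (median 4740 to 60044 UMIs) and 8.84 to 33.0% of immune barcodes (median 3148 to 5584 UMIs) also held one.

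*Slc5a4b* was next, at 372, 424 and 289.9 CPM in the crypt-labelled libraries and 343, 405 and 290.1 CPM in the villus-labelled libraries in members. The HFD VSG libraries were the lowest in both fractions. Between 88.6% and 97.6% of members held a UMI, against 4.65 to 33.3% of Paneth barcodes. *Sult6b2*, the least even of the 5, reached 149, 116 and 43.7 CPM in the crypt-labelled libraries and 152, 217 and 51.5 CPM in the villus-labelled libraries. Both HFD VSG libraries were far below the other libraries. The 10% of members with the highest share of *Sult6b2* among their UMIs held 30.5 to 63.4% of its UMIs, and 28.7 to 67.3% of members held any. *Rdh16f2* was at 41.3, 55.4 and 51.5 CPM (crypt-labelled) and 43.4, 50.8 and 45.2 CPM (villus-labelled) and *Bbox1* at 31.2, 29.3 and 43.3 CPM (crypt-labelled) and 33.4, 33.0 and 35.8 CPM (villus-labelled). Neither gene spread widely over the libraries. A *Bbox1* UMI was found in 33.5 to 60.1% of members and in 0 to 2.44% of Paneth barcodes.

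Members were thus mostly high in *Leap2*, and the other genes of the score accompanied it to varying degrees. *Leap2* gave 44.7 to 67.6% of score M UMIs in members, *Slc5a4b* 22.2 to 33.5%, *Sult6b2* 3.66 to 17.0%, *Rdh16f2* 3.29 to 4.38% and *Bbox1* 2.32 to 3.62%. These shares come from 3′ counts, which do not grow with transcript length. *Leap2* was the leading gene in 75.6% of members, *Slc5a4b* in 17.1% and *Sult6b2* in 6.80%. The median member held UMIs of 3 of the 5 genes, and 44.7% held 4 or 5. The limit of the top 15% lay at 934 CPM of summed score M. The lowest member had 935 CPM and the highest barcode below the limit 934 CPM, while the median member had 1181 and the highest 4644 CPM. As many as 692 members (20.7%) lay within 10% above the limit and 886 barcodes within 10% below it, so the limit cuts through a run of scores. Whether the members are a separate population was not tested. The score rested on a median of 20 UMIs, and 207 members (6.21%) had fewer than 5.

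**Figure D1:**
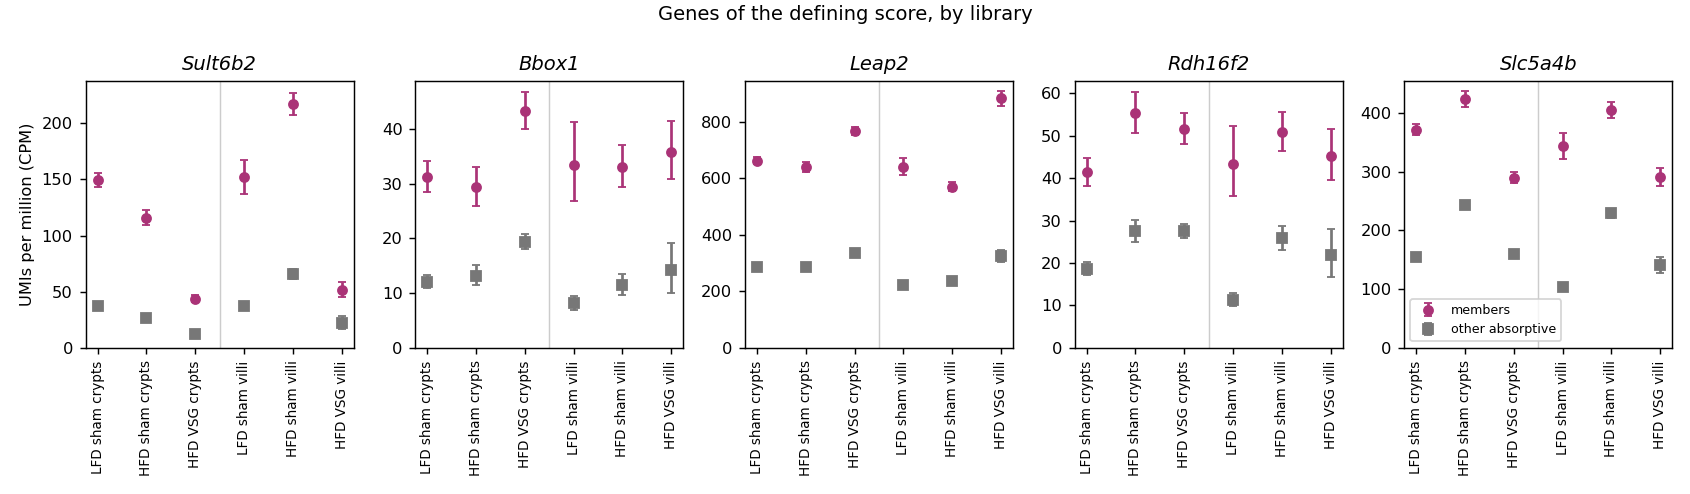
Level of each of the 5 score genes (CPM of summed UMIs, with 95% exact Poisson intervals) in LEAP2/BBOX1-high members and in other absorptive barcodes of each of the 6 libraries. *Leap2* lies at 569 to 883 CPM in members and 222 to 337 CPM in the others, and *Sult6b2* is lowest in the HFD VSG libraries; the rule chose members by these genes.

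Members were unevenly spread over the libraries. They made up 20.3% (19.2 to 21.6), 19.8% (18.4 to 21.2) and 17.2% (16.2 to 18.3) of passing barcodes in the crypt-labelled libraries and 4.91% (4.21 to 5.69), 15.9% (14.8 to 17.1) and 3.86% (3.27 to 4.52) in the villus-labelled libraries. The crypt-labelled libraries together held 71.2% of all members, and the villus-labelled HFD sham library stood above the other villus-labelled libraries. In numbers, there were 884, 622 and 870 members in the crypt-labelled and 167, 645 and 148 in the villus-labelled libraries. Taken as a share of absorptive barcodes alone, the members came to 25.5%, 28.5% and 25.1% (crypt-labelled) and to 10.3% (8.87 to 11.9), 30.9% (28.7 to 33.2) and 33.1% (26.0 to 40.9) (villus-labelled). On that denominator the HFD VSG villus-labelled library, with 163 absorptive barcodes, was level with HFD sham, and the LFD sham villus-labelled library alone was low. Of the members themselves, 98.3%, 87.1% and 91.4% (crypt-labelled) and 97.6%, 80.9% and 36.5% (villus-labelled) lay above the median of the absorptive score. The share in the HFD VSG villus-labelled library was by far the lowest, and its members were also the deepest, at a median of 34695 UMIs against 14730 to 17984 in the other libraries. The shares moved with the filters. With at most 10% mitochondrial UMIs they were 21.0%, 28.5% and 13.6% (crypt-labelled) and 4.83%, 18.1% and 4.40% (villus-labelled). With barcodes thinned to 5000 UMIs, which left 3308, 2353 and 4480 (crypt-labelled) and 2796, 3191 and 3729 (villus-labelled) of the passing barcodes, members were 16.8%, 17.5% and 13.8% and 4.04%, 14.4% and 3.24% of those left. Thinned barcodes have equal totals, so score M moves in whole UMIs, and barcodes tied at the limit of the top 15% are left out. The thinned shares are thus low in part by the rule and cannot be set beside the unthinned ones.

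**Figure D2:**
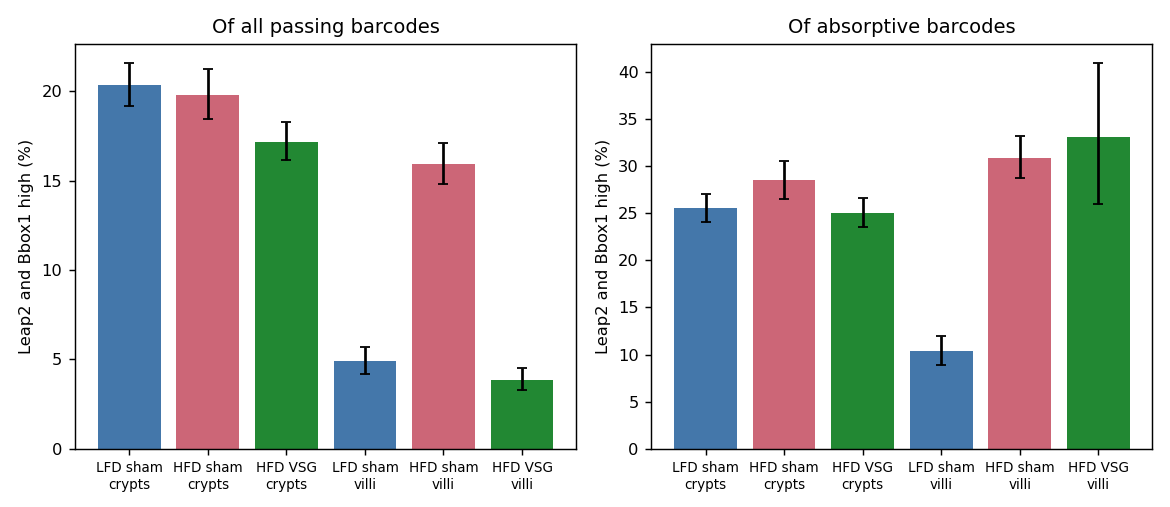
Percent of passing barcodes (left) and of absorptive barcodes (right) that were LEAP2/BBOX1-high members in each library, with 95% exact binomial intervals. The left bars run from 3.86% to 20.3%, and on the right the LFD sham villus-labelled library (10.3%) lies below the others (25.1% to 33.1%).

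Over all passing barcodes, a level that does not depend on the choice of members, *Leap2* was at 354, 325 and 342 CPM in the crypt-labelled and 126, 203 and 94.3 CPM in the villus-labelled libraries. In such sums, fewer cells of a type and less RNA per cell cannot be told apart. The log2 ratio of HFD sham to LFD sham was −0.13 (−0.16 to −0.09) in the crypt-labelled and 0.69 (0.65 to 0.74) in the villus-labelled libraries, and that of HFD VSG to HFD sham 0.07 (0.04 to 0.11) and −1.11 (−1.15 to −1.07). The 2 fractions therefore differed in direction for both comparisons. Within members the diet ratios were −0.05 (−0.10 to 0.00) and −0.17 (−0.25 to −0.09), and the surgery ratios 0.26 (0.22 to 0.31) and 0.63 (0.58 to 0.69). Other absorptive barcodes gave −0.01 and 0.10 for diet and 0.24 and 0.45 for surgery. *Leap2* is a gene of the rule, which cut members, and with them the remaining absorptive barcodes, by a sum that holds it, so the ratios within either kind are a description of the outcome of the rule. With at most 10% mitochondrial UMIs per barcode, the ratios in the crypt-labelled libraries became 0.05 for diet and −0.78 for surgery, so neither direction held there. Both comparisons share the HFD sham libraries.

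The other score genes took different courses. *Sult6b2* was lower after VSG, with log2 ratios of −1.41 (−1.55 to −1.27) and −2.08 (−2.27 to −1.89) in members and −1.07 and −1.56 in other absorptive barcodes, and its diet ratios in members were −0.37 and 0.52, of opposite sign. *Slc5a4b* was higher in HFD sham than in LFD sham members by 0.19 and 0.24 and lower in HFD VSG than in HFD sham, at −0.55 (−0.61 to −0.49) and −0.48 (−0.57 to −0.39). *Bbox1* had a surgery ratio of 0.56 (0.36 to 0.77) in the crypt-labelled and 0.12 (−0.16 to 0.38) in the villus-labelled libraries, the latter with an interval that holds 0. For *Rdh16f2* the surgery intervals held 0 in both fractions, at −0.11 (−0.27 to 0.06) and −0.17 (−0.40 to 0.06). Over all passing barcodes, whose choice did not use these genes, the surgery ratios were 0.35 (0.21 to 0.50) and −1.76 (−1.95 to −1.57) for *Bbox1*, −1.59 and −3.04 for *Sult6b2*, −0.69 and −2.31 for *Slc5a4b*, and −0.20 and −2.01 for *Rdh16f2*. The crypt-labelled ratios over them became −0.70 for *Bbox1*, of the opposite sign, and −1.41 for *Slc5a4b* with at most 10% mitochondrial UMIs, and the smaller *Sult6b2* surgery ratio in members was then −0.38, within the size of 0.5 used below. For *Rdh16f2* the crypt-labelled ratio over passing barcodes reached −1.095 in the lowest of 4 alternative settings. Of passing barcodes, 41.8% (HFD sham) and 4.25% (HFD VSG) of the villus-labelled ones lay above the absorptive median. Fewer such barcodes and less RNA in each cannot be told apart in those sums. The other absorptive barcodes, 109 in HFD VSG, gave villus-labelled surgery ratios of 0.30 for *Bbox1*, −0.71 for *Slc5a4b* and −0.24 for *Rdh16f2*. Because members were cut at a fixed sum, a lower level of *Sult6b2* or *Slc5a4b* in them goes with a higher share of *Leap2* by the rule itself. *Slc5a4a*, the paralog beside *Slc5a4b* and no part of the score, was at 42.0, 22.4 and 14.1 CPM (crypt-labelled) and 36.1, 21.1 and 7.87 CPM (villus-labelled) in members. It was lower in HFD sham than in LFD sham (−0.91 and −0.78) and lower again in HFD VSG (−0.67 and −1.42), whereas *Slc5a4b* was higher in HFD sham. Of the ghrelin axis, ghrelin (*Ghrl*) and its acylating enzyme (*Mboat4*) were at or near 0 in members (at most 0.582 and 0.108 CPM) and the receptor gene *Ghsr* had no UMI.

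The name enterocyte fits the markers. The 13 brush border hydrolases summed to 14160 to 29137 CPM in members, 16997 to 25569 CPM in other absorptive barcodes and 392 to 2459 CPM in Paneth barcodes. Markers of other cells were low. Stem cell markers summed to 20.6 to 50.3 CPM in members against 216 to 913 CPM in all passing barcodes that were no members, and goblet markers to 370 to 755 CPM against 4200 to 11774 CPM. T cell markers summed to 0.431 to 24.2 CPM, B and plasma cell markers to 0 to 5.00 CPM, and 4 of 6 stromal and endothelial genes had no UMI in any member. Paneth markers were at 350.8 to 2950.4 CPM in members, against 523244 to 569060 CPM in Paneth barcodes. The filters had already removed barcodes high in *Lyz1* or with immune UMIs, and Paneth barcodes were themselves chosen by *Lyz1*. Low Paneth and immune cell markers in members thus follow in part from the filters and do not test the name. *Lgr5* was at or near 0.

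Members were next compared with the other absorptive barcodes of the same library. These numbered 2534, 1361 and 2378 (crypt-labelled) and 1416, 1168 and 109 (villus-labelled). All of them lay above the median of the absorptive score, which was not asked of members. In the HFD VSG villus-labelled library 36.5% of members did, so ratios there set them beside few and unlike barcodes. Of 8519 genes averaging 100 UMIs or more per library, 17 (0.2%) were higher by over 0.5 on the log2 scale in all 6 libraries and 69 (0.81%) were lower. The 17 were the 5 score genes and the 12 genes named next, and without a limit of size 12.2% of genes were higher and 25.2% lower in all 6. Members held more UMIs per barcode than the others in all 6 libraries (medians of 14730 to 34695 against 8108 to 25738). With barcodes thinned to 5000 UMIs and shallower ones left out, 8 genes were higher and 23 lower by that size in all 6 libraries, and with at most 10% mitochondrial UMIs 116 were higher and 411 lower. How many genes reached the minimum under these settings is not given. The counts are thus no shares of the 8519 and do not show a weaker or stronger difference. The rule removed barcodes in the top 10% of A or B from members but not from the others, so lower levels in members of genes that go with A or B follow in part from the rule. With such barcodes left out of the others too (7685 of 8966 kept), 19 of 8392 genes were higher and 60 lower by that size, and *Hopx* (0.41) and *Tbc1d31* (0.49) came within 0.5 in their lowest library.

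Among the 12 genes were P450s and aldo-keto reductases, enzymes that act on small molecules. *Cyp2c29*, a cytochrome P450, had the highest ratios outside the score, 1.17 to 2.17. In members it was at 23.7, 26.5 and 11.4 CPM in the crypt-labelled libraries and 13.5, 17.2 and 7.47 CPM in the villus-labelled libraries. Its level was low throughout, and 1 barcode held up to 33.3% of its UMIs among the other absorptive barcodes. *Akr1c19*, an aldo-keto reductase, stood in members at 186, 630.3 and 205 CPM in the crypt-labelled libraries and 179, 697 and 239.8 CPM in the villus-labelled libraries, with HFD sham far above the other groups. In the other absorptive barcodes it was at 96.1, 362 and 122 CPM in the crypt-labelled libraries and 99.9, 439.7 and 104 CPM in the villus-labelled libraries, which gave ratios of 0.66 to 1.20. Its relative *Akr1c13* had ratios of 0.58 to 0.87 and shares 12% of its 3′ words with *Akr1c12*. *Cyp2b10*, a P450 induced by xenobiotics, had ratios of 0.57 to 1.20 at 176 to 311 CPM in members.

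*Apoc2*, the cofactor of lipoprotein lipase on chylomicrons, was in members at 1934, 3926 and 6231 CPM in the crypt-labelled libraries and 1535, 3021 and 5823 CPM in the villus-labelled libraries. In the others it was at 1120.5, 2453 and 4101 CPM in the crypt-labelled libraries and 663, 1529.5 and 2562 CPM in the villus-labelled libraries. Members were above the others in each library, by 0.60 to 1.21. Of its 3′ words, 98.9% are shared with the readthrough gene *Gm44805*, so reads of the 2 cannot be told apart. *Arsg*, a lysosomal sulfatase, had ratios of 0.65 to 1.84, and its 5′ end overlaps that of *Slc16a6* on the other strand. *Ltc4s*, leukotriene C4 synthase, was at 25.7, 60.1 and 84.5 CPM (crypt-labelled) and 29.6, 55.4 and 90.5 CPM (villus-labelled), lowest in LFD sham, and 0.54 to 1.09 above the others. *Gm5485* (0.58 to 1.22), the antisense-typed *2010001M07Rik* (0.63 to 1.61), *Tbc1d31* (0.51 to 1.06), *N4bp2l1* (0.51 to 0.72) and the homeodomain-only gene *Hopx* (0.51 to 1.19) completed them.

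The 8 lowest genes in members included genes of bile acid handling and cholesterol synthesis. *Fabp6*, the ileal bile acid-binding protein, was in members at 1.04, 8.84 and 1.92 CPM in the crypt-labelled libraries and 0.384, 2.15 and 0.59 CPM in the villus-labelled libraries. In the others it was at 39.3, 61.1 and 44.4 CPM in the crypt-labelled libraries and 36.2, 66.7 and 19.1 CPM in the villus-labelled libraries. Every library had less in members, with ratios of −5.25 to −2.79, and in at least 1 library a single member held all of its UMIs. *Slc10a2*, the apical bile acid transporter, stood at 0.787 to 2.66 CPM in members and 4.95 to 10.9 CPM in the others (−3.37 to −2.03). *Plb1*, a brush border phospholipase, was at 36.7, 50.8 and 36.4 CPM (crypt-labelled) and 25.0, 16.4 and 37.4 CPM (villus-labelled) in members and at 189, 159.6 and 183 CPM (crypt-labelled) and 134, 106 and 157 CPM (villus-labelled) in the others, with ratios of −2.69 to −1.65. *Sqle* (−3.77 to −1.47) and *Cyp51* (−2.61 to −1.37), enzymes of cholesterol synthesis, *Fam83e* (−2.68 to −1.69), *Mgat4c*, a glycosyltransferase of N-glycans (−1.97 to −1.42), and the enteroendocrine granule gene *Chga* (−3.51 to −1.45) were the others. In at least 1 library, 1 member held 66.7% of *Sqle*, 37.5% of *Slc10a2*, 33.3% of *Chga*, 30.0% of *Fam83e* and 26.3% of *Plb1* UMIs.

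Gene lists were read beside the 12.2% higher and 25.2% lower in all 6 libraries over all genes. Of 16 genes typical of proximal enterocytes, 13 were higher in members in all 6 libraries and none was lower, with list medians of 0.24 to 0.60. *Ms4a10*, at 791, 1017 and 1171 CPM (crypt-labelled) and 749, 1026 and 1381 CPM (villus-labelled), was above the others by 0.37 to 0.69, and the cytochrome P450 *Cyp2d26* by 0.31 to 0.60. Of 14 counted genes typical of distal enterocytes, 8 were lower in all 6 libraries and 1 (*Cubn*, 0.13 to 1.48) was higher, with medians of −0.55 to −0.42. *Slc34a2*, the phosphate transporter of distal gut, had −1.64 to −0.92, and *Fam151a* −1.99 to −1.35. *Fabp6*, *Slc10a2* and *Plb1*, named above, are 3 of the 8, and every proximal gene but *Ms4a10* stands on another list used here as well.

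Xenobiotic oxidation and conjugation stood out, with 14 of 19 genes higher in all 6 libraries, none lower and medians of 0.34 to 0.49. *Cyp3a11*, a main drug-metabolising P450, was 0.41 to 1.59 and *Adh1*, an alcohol dehydrogenase, 0.44 to 0.77 above the others. *Ephx1*, epoxide hydrolase, had 1.25 to 1.80, at no more than 3.58 CPM. Retinoid genes were higher in 5 of 12 and lower in 1 (*Isx*, the repressor of carotene cleavage, −0.36 to −0.02). *Rbp2*, the cellular retinol-binding protein of enterocytes, was 0.36 to 0.78 and *Retsat*, which saturates retinol, 0.30 to 0.79 above the others. Score genes were left out of these counts. Of 6 other counted genes of sulfation, 4 were higher, among them the sulfotransferases *Sult1b1* (0.12 to 0.36) and *Sult1d1* (0.08 to 0.48), and *Papss1*, which makes the sulfate donor, was lower (−0.41 to −0.14). Fatty acid oxidation had 7 of 20 higher and none lower, with small medians of 0.11 to 0.23. Among these, *Acaa2*, a mitochondrial thiolase, was above the others by 0.27 to 0.65 and *Cyp4a10* by 0.25 to 1.40. Of 9 counted carnitine genes besides *Bbox1*, the acyltransferases *Crat* (0.14 to 0.40) and *Crot* (0.04 to 0.33) had all ratios above 0 and none had all below.

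Sterol and fatty acid synthesis was lower in 10 of 13 genes in all 6 libraries, 5 of them by over 0.5, and none was higher, with list medians of −1.49 to −0.53. *Hmgcs1*, the cytosolic HMG-CoA synthase, was at 34.4, 32.8 and 37.9 CPM (crypt-labelled) and 44.2, 40.5 and 25.6 CPM (villus-labelled) in members and −1.03 to −0.50 relative to the others. *Idi1* had −2.07 to −1.14, and *Elovl6*, a fatty acid elongase, −1.49 to −0.45. The exceptions were *Insig1* (−0.15 to 0.76), *Scd1* (−0.17 to 0.70) and *Me1* (−0.96 to 0.61). Villus tip genes were lower in 4 of 10 and higher in none, but the barcodes highest in B, whose genes mark the villus tip, had been removed from members alone. Without these and those highest in A among the others, 2 of 10 were lower, and *Pmp22* was at −1.41 to −0.70 in place of −1.89 to −1.25. Villus base genes were lower in 3 (*Reg3g*, −2.26 to −0.61; *Lypd8*, −0.95 to −0.72; *Nlrp6*, −0.82 to −0.08) and higher in 2 of 10 (*Reg3a*, 0.30 to 0.67; *Arg2*, 0.30 to 0.50). Of 20 regulators of enterocytes, 3 were higher and 4 lower in all 6 libraries with no limit of size, beside the 12.2% and 25.2% of all genes. *Hnf4a* was lower in members (−0.80 to −0.35), *Ppara* higher (0.10 to 0.66) and *Pparg* higher (0.24 to 0.72). Genes of damaged droplets were lower in 5 of 6, Paneth markers in 4 of 8 and MHC class II genes in 3 of 7. Without the barcodes highest in A or B among the others these counts were 4, 1 and 3, beside 24.5% of all genes, and their part in the ratios was not tested. The counts of proximal (13 higher), distal (8 lower), xenobiotic (14 higher) and sterol synthesis genes (10 lower) were as large in that comparison.

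**Figure D3:**
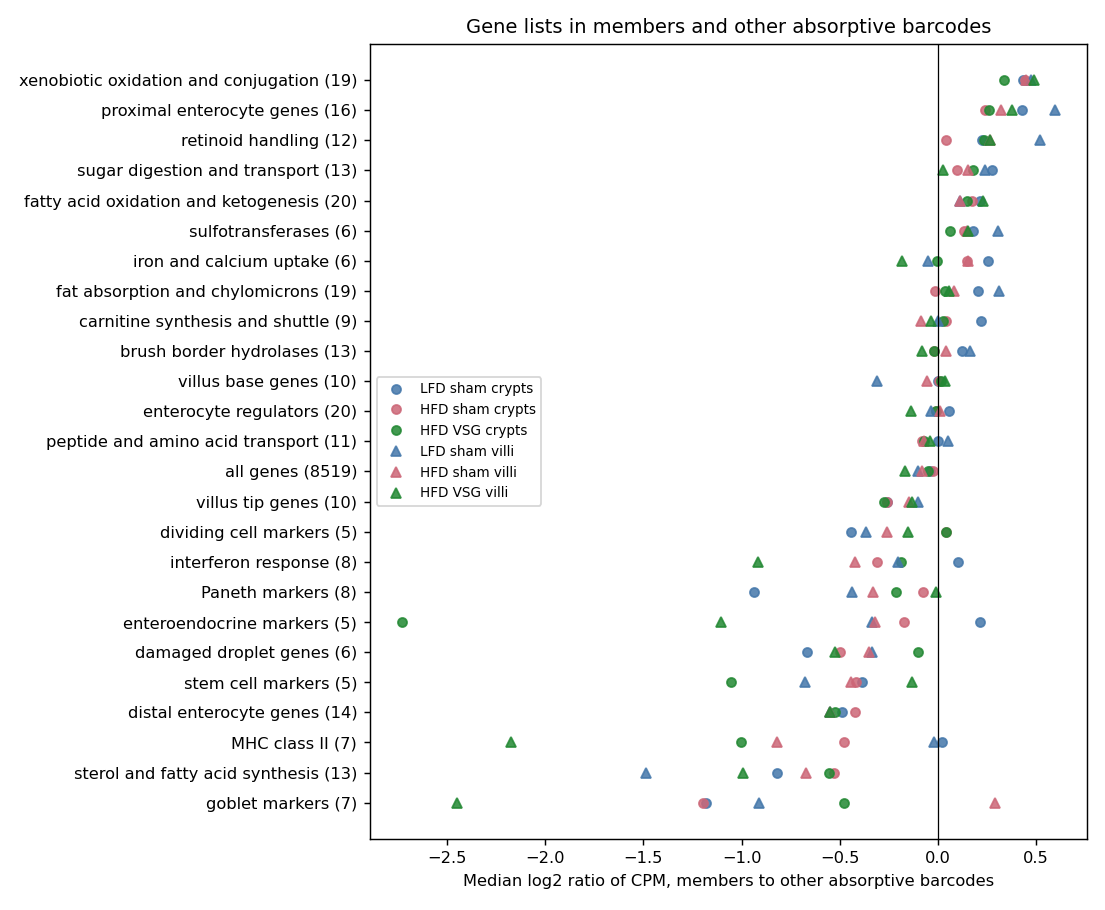
Median log2 ratio of members to other absorptive barcodes for each gene list, 1 point per library. Xenobiotic genes (0.34 to 0.49) and proximal enterocyte genes (0.24 to 0.60) lie above 0 in every library, and distal enterocyte genes (−0.55 to −0.42) and sterol synthesis genes (−1.49 to −0.53) below 0.

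The barcodes highest in A and in B, which the rule removed, were set beside members as well. Against the A-high barcodes (63 to 816 per library), members had more of all 13 brush border hydrolases, of all 13 counted sugar genes and of 17 of 19 genes of fat absorption in all 6 libraries, and less of 9 of 11 counted sterol synthesis genes. Against the B-high barcodes (19 to 825 per library), they had less of all 10 villus tip genes and of 6 of 6 damaged droplet genes, and more of 16 of 19 xenobiotic and 17 of 20 fatty acid oxidation genes. Sterol synthesis was low in both kinds, at 156 to 213 CPM in members and 162 to 255 CPM in B-high barcodes. Of its 11 counted genes, 0 were higher and 3 lower in members. Of 13 counted distal genes, members had 9 higher and 0 lower against A-high barcodes, and 2 higher and 5 lower against B-high barcodes. A and B were part of the rule, so these counts only describe its outcome.

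Which genes differed between the diets within members was asked for each fraction apart. Between HFD sham and LFD sham, 454 of 8177 genes averaging 50 UMIs or more (5.55%) were higher by over 0.5 and 450 (5.5%) lower in the crypt-labelled libraries. In the villus-labelled libraries, 560 of 6556 genes (8.54%) were higher and 229 (3.49%) lower. The counts here and for surgery rest on the ratio alone and set no limit on its interval. Villus-labelled members held 2602129 UMIs in LFD sham, 9291481 in HFD sham and 5083691 in HFD VSG. Genes near the minimum can thus pass 0.5 by counting error, and how many did is not given. In both fractions together, 213 of 6553 genes (3.25%) were higher and 112 (1.71%) lower. The split depended on the filter and the scaling. The crypt-labelled split was 323 higher and 158 lower with at most 10% mitochondrial UMIs, out of a number of genes that is not given. With median-of-ratios scaling the villus-labelled split was 437 higher and 307 lower, and with the study's fractions of free RNA subtracted the crypt-labelled split was 958 higher and 459 lower. The study estimated more free RNA in both HFD sham libraries than in any other, and both comparisons use them. The fractions share the same mice, so a gene seen in both has not been seen in more mice.

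Of the genes higher in HFD sham in both fractions, several with high ratios are given first. *Tm4sf4*, a membrane protein gene, was at 11.6, 214 and 101 CPM in the crypt-labelled libraries and 3.84, 109.9 and 88.7 CPM in the villus-labelled libraries, with ratios of 4.20 (3.98 to 4.43) in crypt-labelled and 4.84 (3.95 to 5.90) in villus-labelled libraries. *G0s2*, an inhibitor of triglyceride lipase, was at 2.65, 32.3 and 21.7 CPM in the crypt-labelled libraries and 2.69, 39.0 and 30.9 CPM in the villus-labelled libraries, a ratio of 3.60 and 3.86. LFD sham was the lowest group for both genes in both fractions, on few UMIs: 1 barcode held up to 40.0% of the *Tm4sf4* and 28.6% of the *G0s2* UMIs of a library. *Me1*, cytosolic malic enzyme, which makes NADPH, was at 11.3, 48.2 and 48.9 CPM (crypt-labelled) and 11.9, 48.1 and 43.1 CPM (villus-labelled), so that HFD VSG stayed level with HFD sham. *Acot1*, an acyl-CoA thioesterase, stood at 2.72, 13.4 and 23.0 CPM (crypt-labelled) and 4.23, 15.6 and 32.7 CPM (villus-labelled) and was highest in HFD VSG. Its diet ratios were 2.30 (1.79 to 2.84) in crypt-labelled and 1.88 (1.00 to 2.92) in villus-labelled libraries in members and 0.48 and 0.38 in other absorptive barcodes. With barcodes thinned to 1500 UMIs the smaller *Acot1* ratio in members was −1.45 and that of *Tm4sf4* 1.55. Those of *Me1* (0.13), *G0s2* (0.45), *Gsta3* (0.35) and *Hnf4aos* (0.13) came within 0.5. At that depth 72 LFD sham villus-labelled members were left, so these ratios rest on sums at or near the floor of 3 UMIs. They cannot show whether the differences depend on depth.

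*Akr1c19*, whose levels are given above, had diet ratios of 1.76 (1.70 to 1.83) in crypt-labelled and 1.96 (1.82 to 2.10) in villus-labelled libraries, and the HFD VSG libraries were close to LFD sham. The glutathione S-transferase *Gsta3* was at 7.12, 24.6 and 11.5 CPM (crypt-labelled) and 4.61, 31.6 and 14.4 CPM (villus-labelled), with ratios of 1.79 and 2.78. *Gm3776*, of the same family, was at 19.2, 65.3 and 14.7 CPM (crypt-labelled) and 24.6, 113 and 59.0 CPM (villus-labelled), with ratios of 1.76 and 2.20. *Gm3776* shares 88.9% of its 3′ words with *Gsta1*, so its reads are uncertain. *1700016C15Rik* (2.06 and 2.45), the antisense-typed *Hnf4aos* (1.72 and 1.85) and the carboxylesterase *Ces1f* (1.62 and 1.64), which is a gene of score A, were the rest of the 10 highest.

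MHC class II genes, which present antigen and are induced in enterocytes by interferon-gamma, gave the 4 lowest diet ratios. All 7 genes of the list were lower in both fractions, with medians of −3.02 and −3.94. *Cd74*, the invariant chain, was at 688, 62.4 and 22.0 CPM in the crypt-labelled libraries and 658, 33.4 and 10.4 CPM in the villus-labelled libraries, with ratios of −3.46 (−3.59 to −3.34) in crypt-labelled and −4.30 (−4.48 to −4.13) in villus-labelled libraries. *H2-Ab1*, a chain of the class II molecule, was at 302, 37.5 and 14.2 CPM in the crypt-labelled libraries and 304, 21.7 and 9.44 CPM in the villus-labelled libraries. Both LFD sham libraries were high and the other 4 low for each. *H2-Aa* (−3.50 and −4.34), *H2-Eb1* (−3.02 and −4.15) and *Ciita*, the class II transactivator (−2.73 and −3.30) were low alike. Of LFD sham members, 95.9% and 93.4% held a class II UMI, against 39.9% and 28.5% in HFD sham and 32.4% and 41.2% in HFD VSG. In LFD sham the top 10% of members held 33.3% and 38.4% of these UMIs, and in the other libraries 65.7 to 83.4%, so that few members carried them there. In at least 1 library 1 member held 66.0% of *Cd74*, 27.3% of *H2-Aa* and 20.8% of *H2-Ab1* UMIs.

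Other absorptive barcodes gave list medians of −2.55 and −3.02. The summed list was at 1484, 156 and 63.0 CPM (crypt-labelled) and 1455, 87.9 and 38.9 CPM (villus-labelled) in members. Paneth barcodes of the same libraries held 109, 6.03 and 14.9 CPM and 104, 7.94 and 3.27 CPM, and immune barcodes 721, 218 and 127 CPM and 952, 0 and 61.4 CPM. The 0 rests on 11 immune barcodes, against 748 in LFD sham and 656 in HFD VSG (villus-labelled). T cell markers summed to 4.79, 2.98 and 2.26 CPM (crypt-labelled) and 24.2, 0.431 and 12.8 CPM (villus-labelled) in members, and B and plasma cell markers to 0.194, 0.107 and 0 CPM and 5.00, 1.29 and 0.984 CPM. Both were highest in LFD sham in each fraction, and their part in the difference was not tested. Interferon response genes were lower in 8 of 8 in the crypt-labelled (median −1.41) and in 4 of 7 in the villus-labelled libraries (median −0.62, with 1 gene higher). *Oasl2* was at 28.8, 9.80 and 19.6 CPM (crypt-labelled) and 22.3, 7.32 and 9.05 CPM (villus-labelled), highest in LFD sham in each fraction.

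Other genes lower in HFD sham than in LFD sham were *Slc16a6*, a monocarboxylate transporter family gene, *Cdc37l1*, *Mbl2*, *Igf2bp2*, *Mt2* and *Bco1*. *Slc16a6* was at 75.8, 25.2 and 53.5 CPM in the crypt-labelled libraries and 86.9, 29.9 and 47.8 CPM in the villus-labelled libraries, a ratio of −1.59 and −1.54. *Cdc37l1* had ratios of −1.72 and −1.49, *Igf2bp2*, an RNA-binding protein gene, −1.41 and −1.45, and *Mbl2*, a mannose-binding lectin, −1.54 and −1.56, with up to 26.3% of its UMIs in 1 barcode. *Bco1*, which cleaves beta-carotene to retinal, was at 38.6, 14.7 and 16.1 CPM (crypt-labelled) and 91.1, 12.8 and 9.84 CPM (villus-labelled), with ratios of −1.39 and −2.83, and 1 barcode held up to 30.0% of its UMIs. *Mt2*, a metallothionein, was at 204, 73.0 and 177 CPM (crypt-labelled) and 157, 57.9 and 238 CPM (villus-labelled), lowest in HFD sham in both fractions. Its diet ratios were −1.48 and −1.44 in members and −0.50 and −0.55 in other absorptive barcodes. With at most 10% mitochondrial UMIs the smaller ratio in members was −0.30. Other absorptive barcodes gave −2.05 and −1.97 for *Slc16a6*, −1.32 and −1.06 for *Cdc37l1* and −0.94 and −0.87 for *Igf2bp2*. They gave −0.80 and −0.38 for *Mbl2* and −1.89 and −2.64 for *Bco1*.

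Sugar digestion and transport was lower in HFD sham members, in 7 of 13 genes in each fraction (medians −0.57 and −0.62, beside 0.01 and 0.06 over all genes), while 0 and 1 were higher. Score genes are left out of this and the following list counts. Other absorptive barcodes gave medians of −0.47 and −0.31 for the sugar genes. *Sis*, sucrase-isomaltase, was at 10707, 6017 and 7334 CPM in the crypt-labelled libraries and 10473, 6282 and 4900.2 CPM in the villus-labelled libraries, with diet ratios of −0.83 (−0.85 to −0.82) in crypt-labelled and −0.74 (−0.76 to −0.72) in villus-labelled libraries. *Slc5a1*, the glucose transporter SGLT1, was at 4275, 2297 and 2528 CPM in the crypt-labelled libraries and 3929, 2102 and 2038 CPM in the villus-labelled libraries (−0.90 and −0.90). LFD sham was highest in both fractions for either gene. *Mgam* (−1.09 and −1.07), the basolateral glucose transporter *Slc2a2* (−0.97 and −0.94), *Tkfc* (−0.57 and −0.67) of fructose breakdown and *Slc5a4a* were also lower in both fractions, whereas *Slc5a4b* and *Treh* (0.36 and 0.46) were above 0.

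The next counts are read beside the 5.55% higher and 5.5% lower (crypt-labelled) and 8.54% and 3.49% (villus-labelled) over all genes. Xenobiotic genes split, with 5 higher and 2 lower of 19 (crypt-labelled) and 7 higher and 1 lower of 18 (villus-labelled). *Cyp3a11* was lower in both, at 1386, 415 and 390.0 CPM in the crypt-labelled libraries and 1043, 421 and 272 CPM in the villus-labelled libraries (−1.74 and −1.31). *Adh1* (0.84 and 1.06), *Maoa* (0.66 and 0.84), *Adh6a* (0.58 and 0.58) and *Gsta1* (0.68 and 0.80) were higher in both. Of 10 counted retinoid genes, 4 and 2 were higher and *Bco1* lower. *Rbp2* was at 9195, 14268 and 16316 CPM in the crypt-labelled libraries and 9027, 14575 and 19309 CPM in the villus-labelled libraries (0.63 and 0.69). *Aldh1a1*, which makes retinoic acid, was at 435, 812 and 416 CPM in the crypt-labelled libraries and 453, 968 and 549.6 CPM in the villus-labelled libraries (0.90 and 1.09). Both retinoid genes were higher in HFD sham than in LFD sham, and *Rbp2* was highest in HFD VSG, where *Aldh1a1* was again low.

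Genes of fat absorption had medians near 0 (0.01 and 0.07), with 2 and 3 of 19 higher and 2 lower in each fraction. *Apoc2* was higher by 1.02 and 0.98, *Apoa4* by 0.40 and 0.64, while *Npc1l1*, the cholesterol uptake protein, was at −0.61 and −0.70 and *Apoc3* at −0.51 and −0.51. Fatty acid oxidation had 4 genes higher and 2 lower of 20 in each fraction. *Acadl* (0.52 and 0.69), *Acot2* (0.71 and 0.72) and *Cyp4a10* (1.13 and 0.57) were higher in both, *Angptl4* lower in both (−1.20 and −1.16). Carnitine genes were little different, at 0 of 9 beyond 0.5 in the crypt-labelled and 1 (*Slc22a5*, the carnitine transporter, 0.27 and 0.70) in the villus-labelled libraries. Goblet markers were lower in 7 of 7 in the crypt-labelled comparison (summed 755 to 370 CPM), while in the villus-labelled comparison 2 were higher and 0 lower (summed 467 to 685 CPM). Damaged droplet genes were lower in 0 and 3 of 6. Their part in the diet ratios was not tested.

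**Figure D4:**
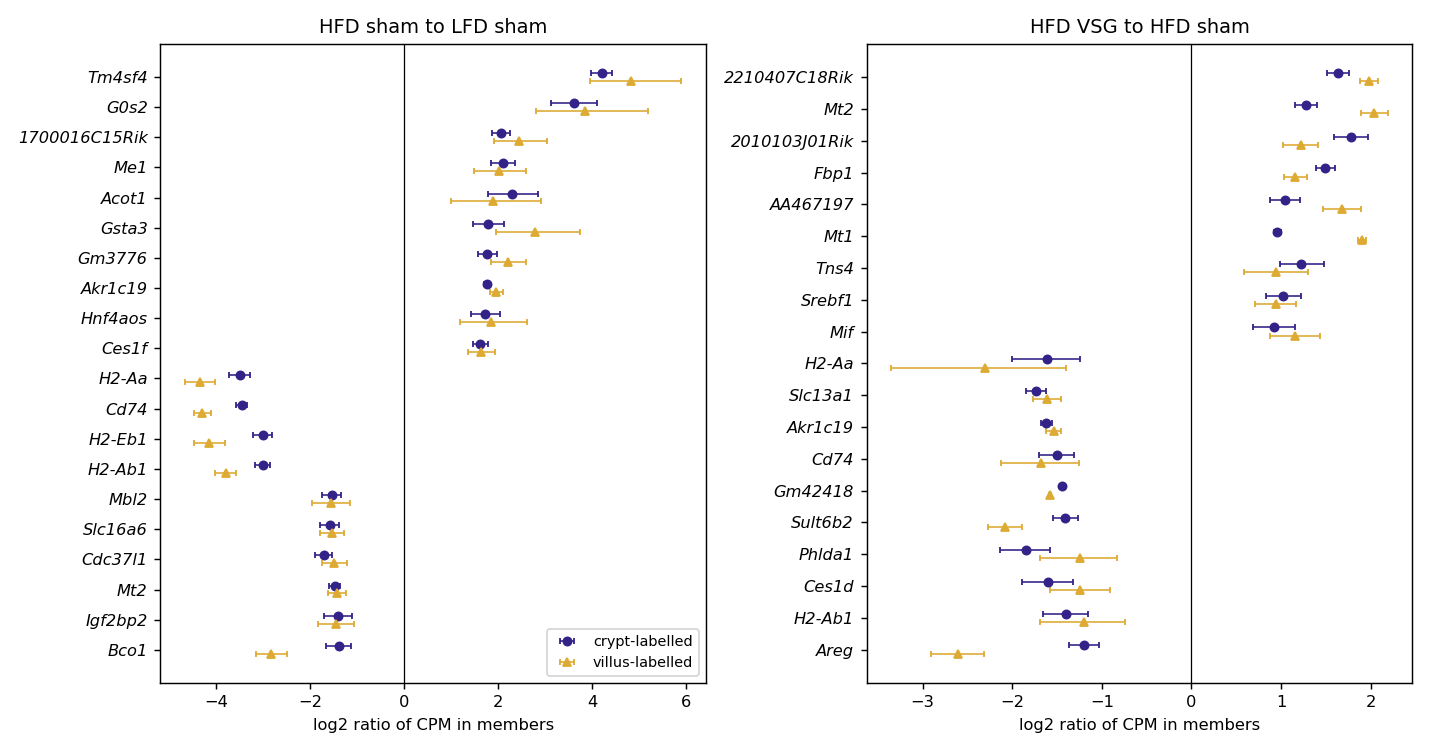
Log2 ratios in members of the genes reported for HFD sham to LFD sham and for HFD VSG to HFD sham, crypt-labelled and villus-labelled libraries apart, with 95% intervals of the counts. *Tm4sf4* (4.20 and 4.84) and *H2-Aa* (−3.50 and −4.34) lie at the ends of the diet panel, and *Akr1c19* is above 0 for diet and below 0 for surgery.

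The comparison of HFD VSG with HFD sham asks what differed with surgery on the same diet. In the crypt-labelled libraries, 371 of 8177 genes (4.54%) were higher by over 0.5 and 238 (2.91%) lower, and in the villus-labelled libraries 517 of 6560 (7.88%) were higher and 1058 (16.1%) lower. Median-of-ratios scaling gave 281 higher and 305 lower, and 819 higher and 739 lower. With the study's free RNA fractions the crypt-labelled split was 437 higher and 517 lower. Changing the members moved the villus-labelled counts too, to 997 higher and 1134 lower with the top 15% taken within each library, 333 and 595 with barcodes thinned to 5000 UMIs, and 387 and 705 with members above the absorptive median alone. The number of genes that reached the minimum depends on the members and is not given for these settings. Of villus-labelled members, 36.5% lay above that median in HFD VSG and 80.9% in HFD sham. In both fractions together, 73 of 6553 genes (1.11%) were higher and 116 (1.77%) lower.

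Metallothioneins and an enzyme of glucose synthesis were among the higher genes. *Fbp1*, fructose-1,6-bisphosphatase of gluconeogenesis, was at 220.5, 97.2 and 274 CPM in the crypt-labelled libraries and 249, 105 and 234 CPM in the villus-labelled libraries (1.5 and 1.16). HFD sham was low in both fractions and the other groups were alike. *Mt1* stood at 1482, 767 and 1491 CPM in the crypt-labelled libraries and 1359, 586 and 2189.6 CPM in the villus-labelled libraries (0.96 and 1.90) and *Mt2* had ratios of 1.28 and 2.04. Other absorptive barcodes gave 1.51 and 1.01 for *Fbp1*, 0.73 and 1.15 for *Mt1* and 0.78 and 0.76 for *Mt2*. With at most 10% mitochondrial UMIs the smaller ratio of *Mt1* was 0.39, within the size of 0.5.

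*2210407C18Rik* was the highest of the 10, at 46.8, 69.7 and 216 CPM in the crypt-labelled libraries and 60.3, 125 and 493 CPM in the villus-labelled libraries (1.63 and 1.98). *Srebf1*, which encodes the lipogenic factor SREBP1, had ratios of 1.02 and 0.94 and *Tns4*, a focal adhesion protein gene, 1.23 and 0.95. The antisense-typed *2010103J01Rik* (1.78 and 1.22), *AA467197* (1.04 and 1.68, up to 21.4% in 1 barcode) and *Mif* (0.92 and 1.15, 0.07 for the smaller when thinned to 1500 UMIs) were higher as well. *Mif* shares 56.1% of its 3′ words with *Gm10169*, and *AA467197* 6.65% with *Mir147*. Other absorptive barcodes gave 2.02 and 2.15 for *2210407C18Rik*, 0.86 and 0.56 for *Srebf1* and 0.91 and 1.15 for *Tns4*. They gave 1.86 and 1.32 for *2010103J01Rik*, 1.39 and 1.58 for *AA467197* and 1.09 and 1.01 for *Mif*.

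*Akr1c19* was lower after VSG, at −1.62 (−1.68 to −1.56) in crypt-labelled and −1.54 (−1.63 to −1.45) in villus-labelled libraries, and so was *Slc13a1*, a sodium-sulfate cotransporter. *Slc13a1* was at 105, 219.6 and 66.1 CPM in the crypt-labelled libraries and 85.3, 238 and 77.7 CPM in the villus-labelled libraries (−1.73 and −1.61), with HFD sham above both other groups in each fraction. *Phlda1* (−1.85 and −1.25) and *Areg*, an EGF receptor ligand (−1.20 and −2.60), and the carboxylesterase *Ces1d* (−1.61 and −1.24) were lower as well. Other absorptive barcodes gave −1.57 and −2.07 for *Akr1c19*, −1.45 and −1.25 for *Slc13a1* and −1.62 and −1.78 for *Phlda1*. They gave −1.14 and −1.08 for *Areg* and −1.28 and −1.19 for *Ces1d*. *Sult6b2*, a score gene described above, also met the rule. MHC class II genes were lower in 6 and 4 of 7 (medians −1.40 and −1.20), from levels that were already low in HFD sham, with *H2-Aa* at −1.62 and −2.30, *Cd74* at −1.50 and −1.68 and *H2-Ab1* at −1.40 and −1.20. Other absorptive barcodes gave medians of −0.74 and 0.01. The villus-labelled value rests on 109 such barcodes in HFD VSG, and whether they differ from members in this was not tested. Thinning ended several of these calls. At 5000 UMIs the smaller ratio in members was −0.40 for *H2-Aa* and −0.30 for *H2-Ab1*, and the villus-labelled class II median was −0.35. With the top 15% taken within each library that median was −0.29 and the smaller ratio of *Cd74* −0.41. At 1500 UMIs the crypt-labelled class II median was −0.20, and the smaller ratio was −0.17 for *Cd74* and −0.03 for *Ces1d*. It was of the opposite sign for *H2-Aa* (1.08), *H2-Ab1* (0.50) and *Phlda1* (0.67). At that depth 62 HFD VSG villus-labelled members were left, and the ratios of opposite sign rest on sums at or near the floor of 3 UMIs. They do not show a change of direction.

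*Gm42418*, a transcript that overlaps a ribosomal RNA repeat and is high in damaged droplets, was at 43473, 35144 and 12930.2 CPM in the crypt-labelled libraries and 55357, 34656 and 11588 CPM in the villus-labelled libraries (−1.44 and −1.58). The list of damaged droplet genes was lower in 4 and 5 of 6, and summed to 46858 and 22806 CPM in HFD sham and HFD VSG (crypt-labelled) and 45421 and 19817 CPM (villus-labelled). Paneth markers were lower in 7 of 8 in each fraction, summing to 603 and 351 CPM and to 2950.4 and 656 CPM. Their part in the surgery ratios was not tested.

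Brush border hydrolases were lower in 3 of 13 in the crypt-labelled and 8 of 13 in the villus-labelled libraries (medians −0.19 and −0.57), with none higher, beside 2.91% and 16.1% of all genes lower. Other absorptive barcodes gave medians of −0.21 and −0.32. The share of members above the median of the absorptive score, which holds such enzymes, also differed between these villus-labelled libraries (80.9% and 36.5%), and its part in the ratios was not tested. *Enpep*, an aminopeptidase, was at 1122, 1306 and 749 CPM in the crypt-labelled libraries and 1105, 1329 and 557 CPM in the villus-labelled libraries (−0.80 and −1.25). *Anpep* (−0.58 and −0.83) and *Xpnpep2* (−0.73 and −0.87) were the other genes lower in both. Xenobiotic genes were lower in 7 of 19 and 6 of 18 and higher in none, among them *Gsta4* (−1.17 and −1.05), *Maob* (−0.69 and −1.45), *Maoa* (−0.60 and −0.56) and *Adh1* (−0.51 and −0.50). Their medians were −0.27 and −0.42 in members and −0.26 and −0.41 in other absorptive barcodes. Of 11 peptide and amino acid transporters, 1 and 4 were lower. *Slc7a8*, a basolateral exchanger of neutral amino acids, was at 351, 340.0 and 211 CPM in the crypt-labelled libraries and 305, 332 and 165 CPM in the villus-labelled libraries (−0.69 and −1.01). The HFD VSG libraries were the lowest of their fraction for *Enpep* and *Slc7a8*.

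Sugar genes showed no common direction, with 0 higher and 1 lower of 13 in the crypt-labelled and 2 higher and 3 lower in the villus-labelled libraries. The counts here stand beside 4.54% of all genes higher and 2.91% lower in the crypt-labelled comparison. In the villus-labelled comparison 7.88% of all genes were higher and 16.1% lower. *Slc2a5*, the fructose transporter GLUT5, was at 0.49 and 0.58. *Sis* had 0.29 and −0.36, of opposite sign in the 2 fractions. Among genes of fat absorption, *Apoc2* was above HFD sham by 0.67 and 0.95 and *Apoa4* by 0.59 and 0.40, while *Apob* was at 0.12 and −0.89. Of 6 counted iron and calcium genes, 0 and 3 were higher, ferritin *Fth1* by 0.49 and 0.63 and the calcium-binding *S100g* by 0.43 and 1.55. Of the fatty acid oxidation genes, *Acot1* was higher in both fractions (0.78 and 1.07), and 2 and 5 of 20 were lower. Sterol and fatty acid synthesis had 3 higher and 1 lower of 11 (crypt-labelled, median 0.17) and 2 higher and 4 lower of 10 (villus-labelled, median −0.32). *Scd1*, a fatty acid desaturase, was at −1.67 and −3.29 (up to 25.0% in 1 barcode). Retinoid genes had 1 and 2 lower of 10, *Aldh1a1* in both (−0.96 and −0.82). Interferon genes were higher in 6 of 8 (median 0.74) in the crypt-labelled and 1 of 7 (median 0.31) in the villus-labelled libraries, but with at most 10% mitochondrial UMIs the medians were 0.23 and 1.44, in the reverse order. Carnitine genes were beyond 0.5 in 0 and in 2 of 9, *Tmlhe* (−0.11 and −1.03) and *Slc22a5* (−0.47 and −1.18), both lower in the villus-labelled library.

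**Figure D5:**
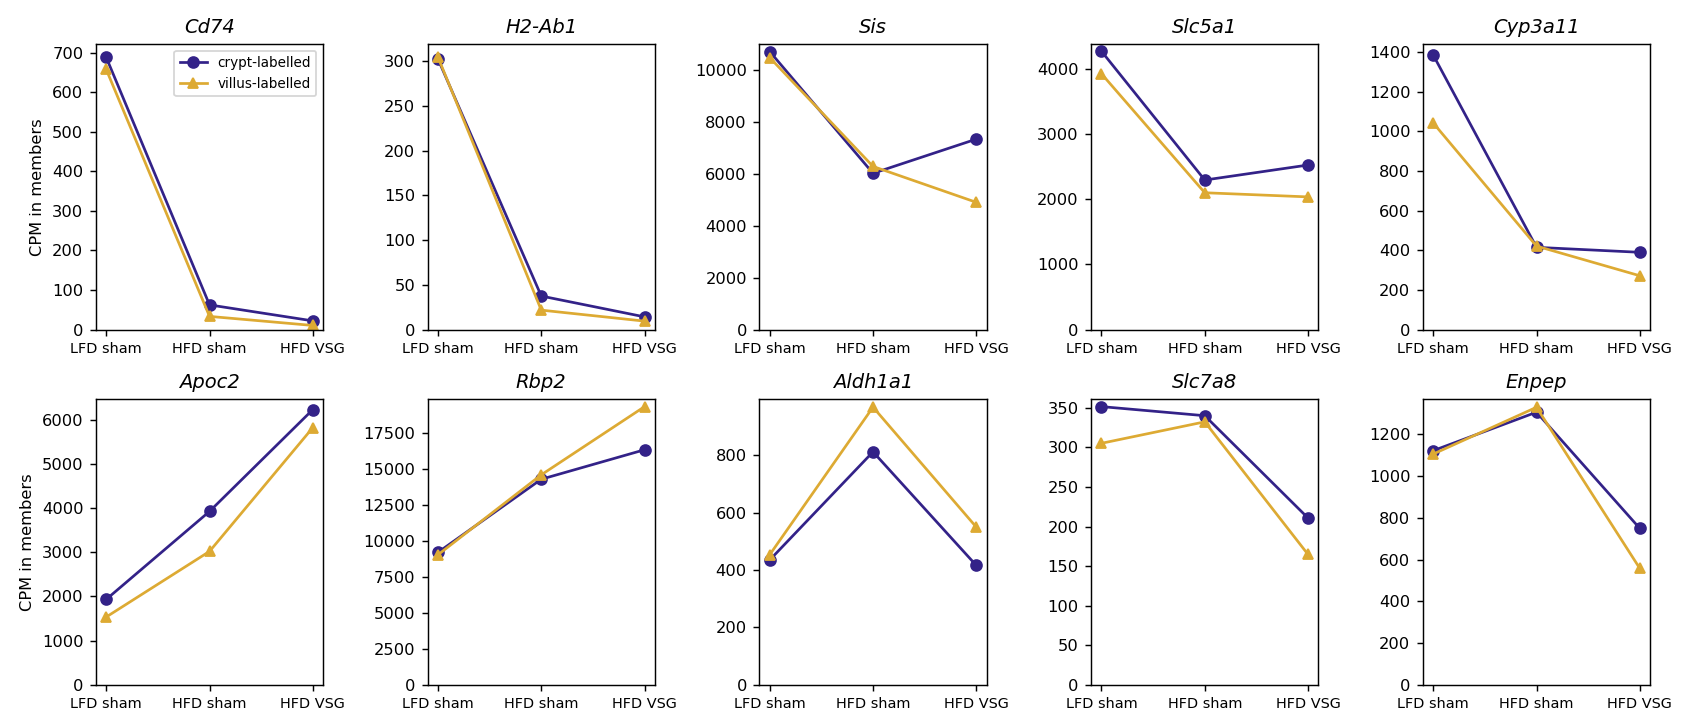
Levels (CPM, linear axes from 0) of 10 genes in members of each library, with crypt-labelled and villus-labelled libraries of the 3 groups joined by lines. *Cd74* and *H2-Ab1* are high in LFD sham alone, *Sis* and *Slc5a1* are highest there, *Apoc2* and *Rbp2* are higher in each of HFD sham and HFD VSG, *Aldh1a1* is highest in HFD sham, and *Slc7a8* and *Enpep* are lowest in HFD VSG.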

How the data were processed

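Single-cell libraries of jejunal crypts and villi were made with a 3′ droplet kit. Per the submitters' processing notes and the headers of the filtered files, the authors aligned reads to mm10 and counted UMIs with Cell Ranger 6.0.0, and they deposited unnormalized counts for 32285 genes in the barcodes called as cells. The headers of the raw matrices, used here for free RNA alone, name another Cell Ranger version. The members and gene lists were chosen with earlier results of these data known, and the motifs with the promoter sequences known.

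From these counts, UMIs were summed over the members of each library, and over other absorptive, Paneth (*Lyz1* at 2% of UMIs or more) and immune barcodes (at least 3 UMIs of *Cd3e*, *Cd3g* and *Ptprc*), and divided by the total of the same barcodes (CPM). Ratios are log2 ratios of CPM, with 95% exact intervals from the UMI counts. With 1 library per group and fraction no test was made. A sum under 3 UMIs was set to 3, and no ratio was formed where both sums were at or under 3. Genes were counted beyond a log2 size of 0.5, between groups from a mean of 50 UMIs per library and against other absorptive barcodes from a mean of 100 over both kinds of barcode (list genes from 20). Named genes had a mean of at least 100 UMIs. They were the 12 highest and 8 lowest against other absorptive barcodes in all 6 libraries, and the 10 highest and 10 lowest between groups beyond 0.5 the same way in both fractions, ranked by the smaller size. Score genes were left out of the first rule. Some genes that met a rule or stand on a list are not reported here, though counts include them. Doublets were kept, and removed in an alternative by a score from simulated doublets at 0.8% per 1000 called barcodes. Gene positions came from GENCODE vM21 (GRCm38) and promoters from RefSeq (GRCm38.p6). The filters, the thresholds, the scaling and the free RNA subtracted were varied. Thinning to 5000 UMIs, keeping only members above the absorptive median, leaving out each library, leaving score genes out of the lists between groups, and leaving barcodes highest in A or B out of the other absorptive barcodes were added after the data had been seen. Scanpy 1.11.5, pandas 2.3.3, scipy 1.17.1 and numpy 2.4.6 were run under Python 3.11.15, plots were drawn with matplotlib 3.10.9, and the steps were tested on simulated data.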

Additional observations from a re-analysis of the deposited data

How the results depend on the processing

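No paired analysis was possible because a comparison of 2 groups within a fraction has 1 library on each side. The fractions of a group share mice, and members and other barcodes share libraries, but neither was tested. Values below are in the order LFD sham, HFD sham and HFD VSG, and the cause of each move was not tested beyond what the setting itself removes. Of the named genes, 463 values kept their sign and stayed beyond 0.5, however much their size changed, 13 moved to within 0.5 and 4 reversed. All 4 reversed with barcodes thinned to 1500 UMIs: *Acot1* for diet at −1.45, and for surgery *H2-Aa* at 1.08, *Phlda1* at 0.67 and *H2-Ab1* at 0.50. List medians stayed the same in 230 and moved in 56 values. Counts of genes below are not shares. The number of genes that reached the minimum depends on the barcodes and UMIs kept and is not given.

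Thinned to 1500 UMIs, members made up 7.38%, 7.97% and 7.31% of crypt-labelled and 2.12%, 6.56% and 1.62% of villus-labelled barcodes that held as many UMIs. Genes higher and lower were then 153 and 93 (diet, crypt-labelled), 73 and 33 (diet, villus-labelled), 73 and 76 (surgery, crypt-labelled), 137 and 101 (surgery, villus-labelled), and 3 and 7 in all libraries against other absorptive barcodes. Thinned to 5000 UMIs the shares of barcodes left were 16.8%, 17.5% and 13.8%, and 4.04%, 14.4% and 3.24%, with 310 and 103 genes (diet, villus-labelled), 333 and 595 (surgery, villus-labelled), and 8 and 23 against other absorptive barcodes.

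With at most 10% mitochondrial UMIs the shares were 28.5% (HFD sham, crypt-labelled), 13.6% (HFD VSG, crypt-labelled) and 18.1% (HFD sham, villus-labelled). *Leap2* over passing barcodes was at 0.052 and 1.15 for diet and −0.78 and −0.93 for surgery. Lower genes numbered 158 (diet, crypt-labelled) and 136 (surgery, crypt-labelled), and 116 were higher and 411 lower than in other absorptive barcodes. With at least 1500 genes the shares were 22.2% (LFD sham, crypt-labelled), 21.9% (HFD sham, crypt-labelled) and 17.3% (HFD sham, villus-labelled), and *Leap2* for surgery in the crypt-labelled libraries was 0.025. Without exclusion by A or B, HFD sham had 21.9% and 17.6% members. With the top 15% taken within each library, 448 genes were lower (diet, villus-labelled) and 997 higher (surgery, villus-labelled).

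Subtracting 10% free RNA gave a *Leap2* surgery ratio of −1.19 (villus-labelled) and 319 higher genes there. The study's fractions gave *Leap2* at −0.075 and 0.76 for diet and 0.010 and −1.20 for surgery, 958 higher genes (diet, crypt-labelled) and 517 lower (surgery, crypt-labelled). Median-of-ratios scaling gave 819 higher (surgery, villus-labelled), and members above the absorptive median 705 lower there. In the order diet crypt-labelled, surgery crypt-labelled, diet villus-labelled and surgery villus-labelled, higher and lower genes were 223 and 195, 109 and 130, 186 and 75, and 268 and 515 with a mean of 200 UMIs. They were 1242 and 1434, 1372 and 841, 1207 and 1616, and 1457 and 2088 with no minimum. Beyond a log2 size of 1 they were 83 and 112, 54 and 50, 84 and 38, and 37 and 149. Leaving out each library in turn gave 19 to 29 genes higher than in other absorptive barcodes (29 without the HFD VSG crypt-labelled library) and 73 to 87 lower. A gene must pass in every library kept, so these counts could only stay or rise and do not test the result.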
